A study of Macaca fascicularis with 64 samples.

Results

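Expression of 9 genes best known from neurons was described in single pancreatic islet cells of young and old cynomolgus monkeys (Macaca fascicularis). The genes were NEFM, NEFL and INA, which encode neurofilament proteins, the enzyme genes ENO2 and UCHL1, the growth cone genes STMN2 and GAP43, the neurotrophin gene NTF3 and the guidance gene RGMA. All 9 were present among the 21041 macaque genes of the count tables. They were chosen by name, with summed levels of these same libraries by cell type and by age already in view, and which value chose each gene was not recorded. Differences between cell types and between ages are therefore given as a description, and a count of genes past a threshold in those comparisons supports nothing about them.

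The study asked how primate islet cells change with age, and it sequenced hand-picked single cells of 16 monkeys in 64 libraries, 4 per monkey. There were 8 young and 8 old monkeys, each age group with 4 females and 4 males (YF1 to YF4, YM1 to YM4, OF1 to OF4 and OM1 to OM4), and the labels name no treatment, allele or transgene for any of them. Islets came from the tail of the pancreas after collagenase digestion. Each monkey was collected on a day of its own, so day and monkey cannot be told apart. Of 6141 cell barcodes, 5908 had over 800 genes and over 10000 unique molecular identifiers (UMIs, 1 per captured transcript), and no barcode name occurred in more than 1 library. The type of a cell was set by the highest of its 4 hormone counts, which gave 1219 β-cells (INS), 4503 α-cells (GCG), 112 δ-cells (SST) and 74 PP-cells (PPY).

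The type names were compared with markers other than the hormones. In β-cells 8 of 9 such markers, in α-cells 7 of 9 and in δ-cells 6 of 7 had their highest level in the cells named for them. In PP-cells this held for 3 of 7, so that the name PP-cell rests mainly on PPY here. Hormones were often mixed: the top hormone held under 4 times the UMIs of the next in 835 of the 1219 β-cells, 299 of the 4503 α-cells, 72 of the 112 δ-cells and 66 of the 74 PP-cells. Doublets were not called, and the results below give values for cells of 1 clear hormone where they bear on a difference. Counts were summed per monkey and type, for every monkey with at least 5 cells of the type, and a level is the UMIs of a gene in that sum scaled to 1000000 macaque UMIs (CPM). A sum held 622124 to 19086370 UMIs in β-cells of 16 monkeys and 14089079 to 27439498 UMIs in α-cells of 16 monkeys, whereas only 11 monkeys (7 young, 4 old) gave a δ-cell sum and 6 (2 young, 4 old) a PP-cell sum.

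Neurofilaments are intermediate filaments that give long axons their calibre, built from light, medium and heavy chains together with α-internexin, the product of INA. Islet endocrine cells share much of their secretory and cytoskeletal programme with neurons, and neuron-specific enolase and the ubiquitin hydrolase UCHL1 are long-used markers of neuroendocrine cells. NTF3 encodes neurotrophin-3, a secreted ligand of the receptor TrkC, and RGMA encodes a membrane-anchored guidance molecule that binds neogenin.

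NEFM, the medium neurofilament chain, had its highest median level in β-cells. Its level in β-cells was lowest at 5.71, median 92.4 and highest 278 CPM in young monkeys, and 182, 283 and 576 in old monkeys. The α-cell values were 18.8, 63.9 and 164 in young and 26.3, 51.4 and 200 in old animals. Within a monkey the β-cell level was above the α-cell level in 15 of 16 monkeys, with a median ratio of 2.39. The exception was YM3, with 5.71 CPM in its β-cells and 108 in its α-cells. In δ-cells the level ranged from 0 to 256 with a median of 73.6 over 11 monkeys, and in PP-cells from 2.69 to 331 with a median of 160 over 6. The δ-cell level was above the α-cell level in 4 of 11 monkeys and the PP-cell level in 4 of 6, so no order of these types was seen.

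NEFL, the light chain, had the most one-sided neurofilament pattern. In β-cells it reached 1.396, 13.0 and 70.5 CPM (lowest, median, highest) in young and 3.03, 34.2 and 117 in old monkeys, and in α-cells 0, 1.44 and 27.2 in young and 1.90, 2.81 and 10.5 in old monkeys. The β-cell level was the higher in 16 of 16 monkeys (median ratio 8.26), although the ranges over monkeys overlapped widely. In δ-cells the median was 0 and the highest 5.66. INA showed no such order. It lay between 103 and 249 in β-cells (median 168) and between 134 and 224 in α-cells (median 185), with the β-cell level higher in 7 monkeys and lower in 9.

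**Figure D1:**
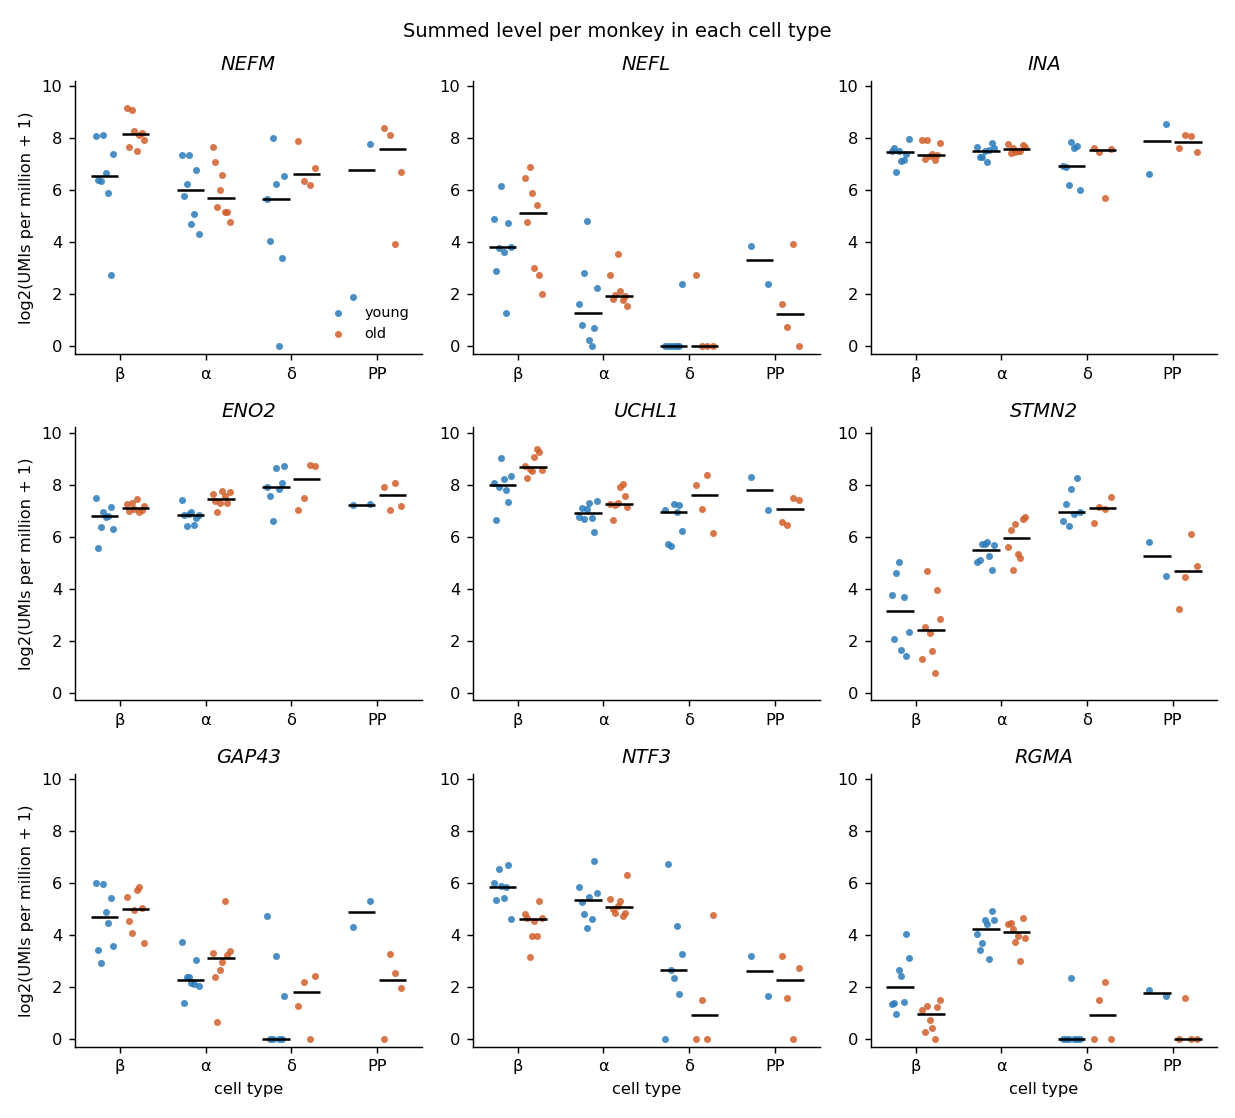
Level of each of the 9 genes in β-, α-, δ- and PP-cells, with log2(CPM + 1) on the vertical axis (CPM, UMIs of the gene scaled to 1000000). There is 1 point per monkey and cell type of at least 5 cells, with young and old monkeys marked apart and a bar at each median. NEFM, NEFL, UCHL1 and GAP43 sit highest in β-cells, STMN2 in δ-cells with β-cells at the bottom, RGMA in α-cells, and INA at like levels throughout.

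The enzyme genes differed from each other. UCHL1, a deubiquitinating enzyme abundant in neurons, lay between 98.1 and 669 CPM in β-cells (median 347 over 16 monkeys) and between 71.1 and 261 in α-cells (median 144). It was higher in β- than in α-cells in 15 of 16 monkeys, YF2 being the exception, with a median ratio of 2.45. In δ-cells (median 131) it was below the β-cell level of the same monkey in 11 of 11. ENO2, the neuronal enolase of glycolysis, was instead highest in δ-cells, with 97.3 to 436 and a median of 241 over 11 monkeys. It was above the α-cell level in 10 of 11 monkeys (median ratio 1.86) and above the β-cell level in 10 of 11 (median ratio 2.45), OF1 being the exception in both. Between β-cells (46.6 to 180, median 126) and α-cells (83.6 to 217, median 139) the ENO2 ranges overlapped almost wholly.

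The growth cone genes ran in opposite directions between the cell types. STMN2, a stathmin that regulates microtubules in growing axons, was lowest in β-cells, with 0.68 to 31.1 CPM and a median of 4.37. It stood at 25.6 to 108 in α-cells (median 48.3) and at 83.4 to 302 in δ-cells (median 133). The α-cell level was above the β-cell level in 16 of 16 monkeys, and the δ-cell level was above the α-cell level in 11 of 11, with a median ratio of 3.03. GAP43, a membrane phosphoprotein of growth cones, was the reverse, at 6.68 to 63.3 in β-cells (median 29.3) against 0.56 to 38.4 in α-cells (median 4.77), and higher in β-cells in 16 of 16 monkeys. In δ-cells its median was 1.42, and YF1 alone reached 25.4 there, from 14 UMIs in 14 cells.

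NTF3 and RGMA, the secreted and the membrane-anchored ligand of the set, were low in δ- and PP-cells at the depth reached. NTF3 had medians of 33.0 CPM in β-cells and 35.8 in α-cells over 16 monkeys, and was higher in β-cells in 6 monkeys and in α-cells in 10. Its medians were 4.09 in δ-cells and 3.91 in PP-cells. The PP-cell sums held 0 to 4 NTF3 UMIs each, where a count of 0 would allow a level of up to 2.001 to 14.4 CPM. The highest δ-cell sums were those of YF2 (106, from 27 UMIs) and OM4 (26.1, from 18 UMIs), followed by YM1 at 19.4. RGMA was found in α-cells at 7.06 to 29.6 with a median of 16.6, and was lower in β-cells in 16 of 16 monkeys, where the median was 1.49. In δ- and PP-cells no sum of at least 5 cells had over 3 RGMA UMIs, and no fold is given for them.

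Fits on the sums by edgeR's quasi-likelihood test, with the monkey as a block, gave the sizes of these differences. Between β- and α-cells 6 of the 9 genes had a Benjamini-Hochberg adjusted p under 0.05, where 25.0% of 12899 genes did. NEFL (log2 difference 2.81 ± 0.50, SE), GAP43 (2.25 ± 0.43), NEFM (1.57 ± 0.36) and UCHL1 (1.24 ± 0.18) were higher in β-cells. RGMA (-3.25 ± 0.47) and STMN2 (-2.995 ± 0.37) were lower. INA (-0.09 ± 0.16), NTF3 (-0.15 ± 0.37) and ENO2 (-0.22 ± 0.16) did not pass. The median over all genes was -0.11, and -0.14 with size factors computed by relative log expression (RLE) in place of the trimmed mean of M-values (TMM).

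**Figure D2:**
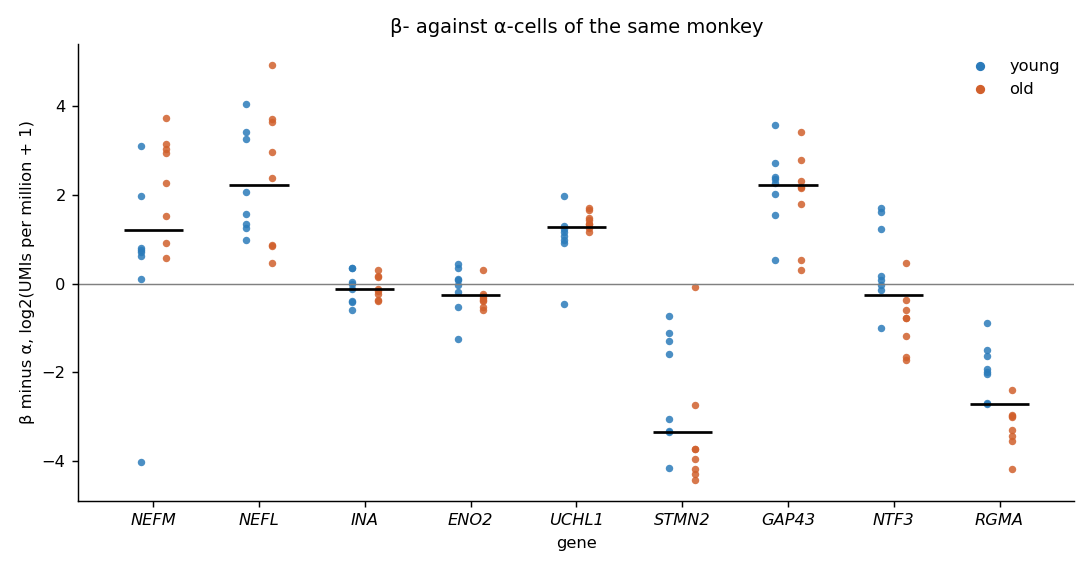
Difference of log2(CPM + 1) in β- minus α-cells of the same monkey for each of the 9 genes. Each of the 16 monkeys is 1 point, with young and old marked apart and a bar at the median. The medians of NEFL, GAP43, NEFM and UCHL1 lie above 0, those of STMN2 and RGMA near -3, and those of INA, NTF3 and ENO2 near 0.

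The same genes were read in cells of 1 clear hormone. In cells whose top hormone held at least 4 times the UMIs of the next, 384 β-cells and 4204 α-cells, the median level over 11 and 16 monkeys was 177 against 59.2 CPM for NEFM and 370 against 135 for UCHL1. It was 42.3 against 4.84 for GAP43 and 13.9 against 2.72 for NEFL. For STMN2 the medians were 3.25 in β-cells and 47.1 in α-cells, and for RGMA 0.62 and 17.1. The order of the 2 cell types was thus the same in these cells for all 6 genes. For INA the medians were 182 in β-cells and 184 in α-cells, and for ENO2 121 and 139. NTF3 was at 18.1 in these β-cells and 35.1 in these α-cells, and at 34.0 in the remaining β-cells over 16 monkeys. The sets of monkeys differ, and this NTF3 gap was not tested. Of such δ-cells there were 40, enough in only 2 monkeys, where ENO2 was at 24.8 and 304 and STMN2 at 71.3 and 338, and no monkey had enough such PP-cells.

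Among the smaller populations, 4 of 9 genes passed between δ- and α-cells, where 23.2% of all genes did. ENO2 (0.79 ± 0.18) and STMN2 (1.39 ± 0.38) were higher in δ-cells, and NTF3 (-2.67 ± 0.54) and RGMA were lower. The NTF3 values of δ-cells, here and below, rest on 59 UMIs in 112 cells, of which YF2 held 27 and OM4 18. Between δ- and β-cells 7 of 9 passed, against 19.8% of all genes, with STMN2 (4.38 ± 0.41) and ENO2 (1.00 ± 0.18) higher and NTF3 (-2.52), NEFM (-1.57), UCHL1 (-1.41), NEFL and GAP43 lower. No fold is given for the last 2 genes, since 9 of the 11 δ-cell sums held 0 NEFL UMIs and 10 of 11 held at most 3 GAP43 UMIs. The median over all genes was -0.47 between δ- and α-cells and -0.35 between δ- and β-cells (-0.26 and -0.11 with RLE size factors), so these values are read relative to that median.

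PP-cells gave fewer passing genes. NTF3 and RGMA were lower than in α-cells, 2 of 9 genes where 6.61% of all genes passed, around a median over all genes of -0.37. Against β-cells 3 of 9 passed (17.2% of all genes), with STMN2 higher (2.59 ± 0.54) and UCHL1 (-1.21 ± 0.27) and NTF3 lower. With at least 10 cells per monkey the PP-cells came from OF2 alone (33 cells). STMN2 was then at 1.64 and UCHL1 at -1.67 against β-cells. With 1 monkey that setting cannot show whether these 5 values hold over monkeys. Against δ-cells only STMN2 passed among the 9 (-1.79 ± 0.56), where 10.3% of all genes did. That value did not pass when OF1, OF2, OM4 or YM4 was left out, at -1.79 to -1.58 (adjusted p 0.0525 to 0.0792 by edgeR).

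The share of cells with a UMI was compared after thinning every cell to 10000 UMIs, since β-cells held a median of 74425 UMIs per cell, α-cells 64894, PP-cells 45773 and δ-cells 43776. The thinning left out 6 β-cells and 39 α-cells with fewer macaque UMIs. NEFM was found in 51.6% of β-cells (95% exact binomial interval 48.8 to 54.5, n = 1213) and 21.0% of α-cells (19.8 to 22.2, n = 4464). UCHL1 was found in 82.3% of β-cells (80.0 to 84.4) and 56.3% of α-cells (54.8 to 57.8), and NEFL in 12.4% (10.6 to 14.4) and 2.55% (2.11 to 3.06). These intervals cover counting error only and take no account of the spread between monkeys.

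The same order as in the summed levels held for the growth cone genes and RGMA. STMN2 was found in 4.204% of β-cells (3.15 to 5.49), 20.4% of α-cells (19.2 to 21.6) and 37.5% of δ-cells (28.5 to 47.1). GAP43 was found in 18.1% of β-cells (16.01 to 20.4) against 4.08% of α-cells (3.52 to 4.70), and RGMA in 1.24% (0.69 to 2.03) against 8.92% (8.10 to 9.79). RGMA was found in 1 of 112 δ-cells and 1 of 74 PP-cells, with intervals that reach 4.87% and 7.30%, so at this depth the β-cell share could not be told from theirs. NTF3 was found in 18.6% of both β-cells and α-cells. INA (63.9% and 61.6%) and ENO2 (55.9% and 55.6%) were found in most cells of both types.

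A few cells held much of some genes. The 5% of β-cells with most NEFM held 38.7% of its UMIs, and the corresponding 5% of α-cells held 64.5%, where the 5% of cells with most UMIs in all held 13.6% and 13.2%. The share was higher still for NEFL (67.7% in β-cells, 89.4% in α-cells), and for GAP43 in α-cells (88.0%) and STMN2 and RGMA in β-cells (80.3% and 91.2%). For UCHL1, ENO2 and INA, which were found in most cells, it was 21.6% to 27.3% in both types. This share depends on how sparse a gene is: RGMA had 250 UMIs, in 83 of the 1219 β-cells. A comparison with other genes of like level was not made. Among β-cells the median cell had 85.002 NEFM CPM and the cell at the 99th percentile 1999, whereas the median α-cell had 0 and the 99th percentile was 1025. The highest single counts of NEFM were 829 UMIs in an α-cell of OF1 and 386 in a β-cell of OF3.

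**Figure D3:**
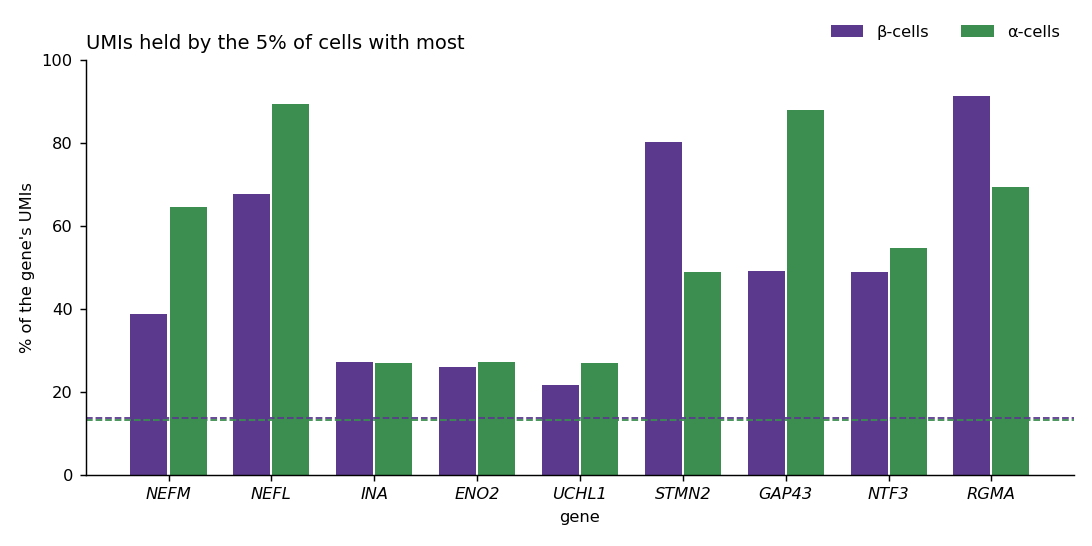
Percentage of each gene's UMIs held by the 5% of β- or α-cells with most of that gene, with dashed lines for the share of all UMIs held by the 5% deepest cells (13.6% and 13.2%). INA, ENO2 and UCHL1 stay under 28%, while NEFL and GAP43 in α-cells and RGMA and STMN2 in β-cells exceed 80%.

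The light and medium chains overlapped within β-cells. NEFL was found in 17.9% of thinned β-cells with NEFM and 6.64% of those without, and the share was higher with NEFM in 11 of the 14 monkeys that could be compared and lower in 2. In α-cells the shares were 4.80% and 1.96%, but the share was higher with NEFM in only 6 of 16 monkeys and lower in 8. INA followed NEFM in neither type (higher with NEFM in 7 of 14 monkeys in β-cells and 9 of 16 in α-cells), nor did NTF3 (7 of 14 and 7 of 16). In α-cells the share with STMN2 was higher in cells with NEFM in 13 of 16 monkeys, that with UCHL1 in 12 and that with GAP43 in 11. The shares over all α-cells with and without NEFM were 21.9% and 20.0% for STMN2, 58.9% and 55.6% for UCHL1, and 5.98% and 3.57% for GAP43. In β-cells the share was higher with NEFM in 6 of 14 monkeys for STMN2, 9 for UCHL1 and 8 for GAP43. β-cells with NEFM had a median of 83305 UMIs before thinning and those without 66918.

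No age difference of the 9 genes passed the test. Of the 9, 8 passed the filter on low counts in β-cells and 9 in α-cells, and none had an adjusted p under 0.05 by edgeR's quasi-likelihood test in either, where 0.0470% of 10628 genes passed in β-cells (5 genes) and 0% of 12916 in α-cells (886 at an unadjusted p under 0.05, and 24 by DESeq2). The smallest adjusted p were 0.0869 for NTF3 in β-cells and 0.473 for ENO2 in α-cells. The median log2 difference, old minus young, of the genes tested was 0.23 in β-cells and 0.19 in α-cells, beside -0.01 and 0.00 over all genes. RGMA was not tested in β-cells.

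NEFM in β-cells was higher in old monkeys by 1.37 ± 0.38 on the log2 scale (2.59-fold). From the levels given above, 6 of 8 young monkeys lay below the lowest old one and 4 of 8 old monkeys above the highest young one, so the age groups overlapped. After thinning, NEFM was found in 33.5% ± 17.5 (SD, n = 8) of β-cells in young and 61.9% ± 8.81 (n = 8) in old monkeys. In α-cells the difference was -0.01 ± 0.40, and the shares were 21.6% ± 12.7 and 21.4% ± 9.24. Without YM3, the young male whose β-cell NEFM was lowest and whose α-cells carried the most immune cell markers (1974 CPM over 14 genes), the differences were 1.19 in β-cells and 0.36 in α-cells. The part of these markers in the NEFM values was not tested. The other neurofilament genes differed less, NEFL by 0.74 ± 0.55 in β-cells and 0.19 ± 0.78 in α-cells, and INA by 0.10 ± 0.18 and 0.09 ± 0.10. Without OM2 the NEFL value in β-cells was 0.17, and without YF4 that in α-cells was 1.02.

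NTF3 in β-cells went the other way. Its level was 23.4, 57.2 and 103 CPM (lowest, median, highest) in young and 7.86, 23.3 and 39.0 in old monkeys, a difference of -1.52 ± 0.32 on the log2 scale. All young monkeys but YM4 lay above the highest old one, and 4 of 8 old monkeys lay below the lowest young one. NTF3 was found in 29.1% ± 7.41 (SD, n = 8) of young and 13.2% ± 7.38 (n = 8) of old β-cells after thinning. In α-cells the levels were 18.5, 40.1 and 114 in young and 25.5, 32.7 and 78.6 in old monkeys, a difference of -0.26 ± 0.29. With DESeq2, with no filter on low counts, or without YM4, the β-cell value passed (adjusted p 0.00237, 0.0359 and 0.0374), and without YM3 it was -1.29 with an adjusted p of 0.368 by edgeR. Over all alternatives its adjusted p ran from 0.00237 to 0.9998, and the value from -1.67 to -1.16.

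The enzyme genes had higher medians in old than in young monkeys in both cell types. ENO2 in α-cells was 83.6, 112 and 167 CPM in young and 124, 175 and 217 in old monkeys (0.62 ± 0.14 on the log2 scale), with 7 of 8 young monkeys below the lowest old one and YF1 at 167 the exception. DESeq2 passed it with an adjusted p of 0.0315. In β-cells ENO2 was 46.6, 109 and 180 in young and 123, 138 and 173 in old monkeys (0.35 ± 0.21). UCHL1 in β-cells was 98.1, 255 and 522 in young and 309, 404 and 669 in old monkeys (0.76 ± 0.24), with 6 of 8 young monkeys below the lowest old one. In α-cells it was 71.1, 120 and 164 in young and 97.5, 152 and 261 in old monkeys (0.47 ± 0.19).

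The remaining genes had wide errors. STMN2 differed by -0.46 ± 0.66 in β-cells and 0.58 ± 0.26 in α-cells, and GAP43 by 0.09 ± 0.43 and 0.84 ± 0.60. The α-cell value of GAP43 was 0.28 without OM2, whose α-cells held 38.4 CPM against 9.56 in the next old monkey. RGMA differed by -0.11 ± 0.27 in α-cells. In β-cells its levels were 0.95, 3.04 and 15.5 CPM in young and 0, 0.92 and 1.82 in old monkeys, with 6 of the 16 monkeys at 3 UMIs or fewer, so that no fold is given. In δ- and PP-cells 5 of the 9 genes could be tested for age and none passed, where 0% of 6484 and 0% of 6568 genes did (209 and 394 at an unadjusted p under 0.05, and 3 and 1 by DESeq2).

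**Figure D4:**
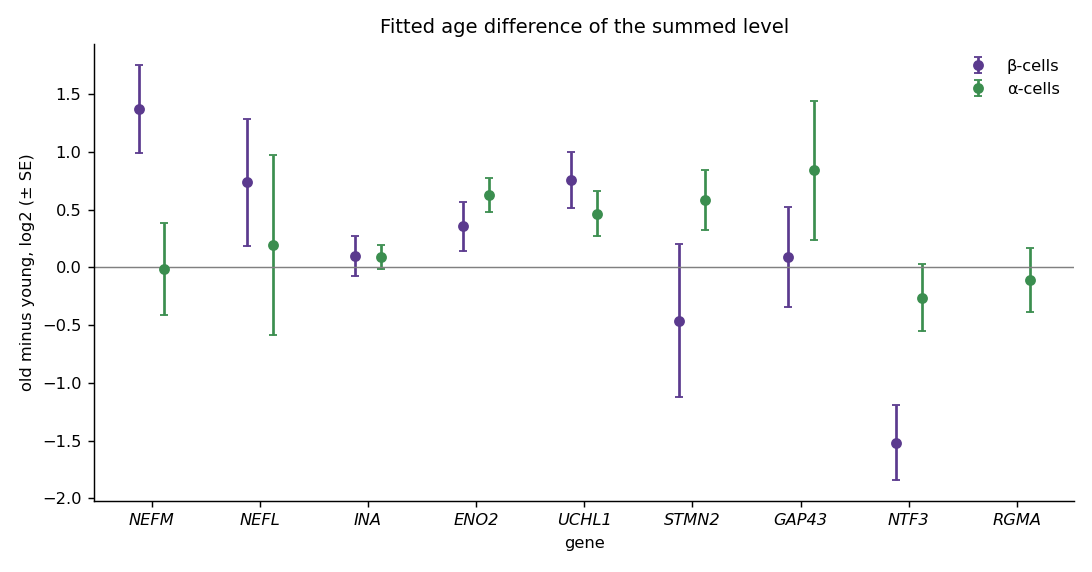
Fitted log2 difference of the level, old minus young, in β-cells and α-cells for each of the 9 genes, with bars of 1 SE, from 8 young and 8 old monkeys. NEFM (1.37) and NTF3 (-1.52) in β-cells lie furthest from 0, and RGMA has no β-cell point because it did not pass the filter on low counts.

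Whether the age difference itself differed between β- and α-cells was tested as an interaction. None of the 9 genes passed by edgeR's quasi-likelihood test, where 0% of 13322 genes did (806 at an unadjusted p under 0.05, and 10 by DESeq2). The interaction (β minus α) was largest for RGMA (-2.29 ± 0.57, adjusted p 0.549, and 0.0431 by DESeq2), followed by NEFM (1.56 ± 0.60, adjusted p 0.733 by edgeR), STMN2 (-1.45 ± 0.67, 0.798) and NTF3 (-1.31 ± 0.39, 0.638). For RGMA the value rests on β-cell sums of 0 to 71 UMIs.

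No gene of the 9 had an age difference that passed as different between males and females. In β-cells 0% of 11693 genes passed the interaction of sex and age by edgeR's test (495 at an unadjusted p under 0.05, and 2 by DESeq2), and in α-cells 0.00707% of 14146 genes (1 gene, none of the 9). The NTF3 difference in β-cells was -1.83 ± 0.46 in females and -1.16 ± 0.45 in males, 4 young and 4 old of each sex. UCHL1 in β-cells differed by 0.35 ± 0.33 in females and 1.21 ± 0.33 in males, and ENO2 in α-cells by 0.39 ± 0.19 and 0.87 ± 0.19. The largest interaction was that of GAP43 in α-cells, at 2.25 ± 1.03 (males minus females, adjusted p 0.877 by edgeR), with -0.28 ± 0.72 in females and 1.97 ± 0.74 in males, among them OM2.

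Markers of neurons and glia were read beside these genes. PHOX2A and VIP, markers of autonomic neurons, had 0 UMIs in all 5908 cells, NOS1 had 1 UMI and CHAT had 33 UMIs in 8 α-cells. SOX10, which defines Schwann cells, had 4 UMIs in 3 β-cells and 144 UMIs in 11 α-cells. Of 19 listed autonomic neuron markers, 13 had a UMI in β-cells of each age group, and their summed level was 466 to 926 CPM in young and 674 to 1678 in old monkeys. TH, which encodes the first enzyme of catecholamine synthesis and belongs to that list, reached 399 CPM in β-cells, with a UMI in 945 of them, and 4.24 in α-cells. The 12 Schwann and glial markers summed to 15.4 to 85.2 in young and 17.6 to 128 in old β-cells, and to 38.2 to 253 and 53.8 to 277 in α-cells. Without the cells whose markers of acinar, ductal, stromal, endothelial, immune or Schwann cells exceeded 2000 CPM (170 cells), no difference of the 9 genes that passed between cell types was lost. The part of TH and of the neuronal and glial lists in the values above was not tested.

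Direct partners of the 9 genes were given as levels. NEFH, the heavy neurofilament chain, had medians of 2.31 CPM in β-cells and 0.44 in α-cells, and its β minus α difference was 3.05 ± 1.02. The ubiquitous enolase ENO1 was at 427 in β-cells and 252 in α-cells (0.72 ± 0.12), UCHL3 at 70.1 and 40.9, STMN1 at 99.4 and 77.6, and STMN3 at 64.0 and 82.7. Of the neurotrophin receptors, NTRK3 and NGFR had medians of 0 to 0.04, so that NTRK3, the receptor of NTF3, was at or near 0 in both types. NTRK2 was at 2.07 in β-cells and 24.3 in α-cells (-3.06 ± 0.50). NEO1, which encodes neogenin, was at 36.4 and 47.2, RGMB at 3.28 and 4.37, and the neuronal gene repressor REST at 1.45 and 2.02. PRPH was not analysed here.

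No other gene of the same pathways passed the test for age. This held in β- and α-cells in 6 lists by edgeR, with NEFH in β-cells at 3.33 ± 0.90 (adjusted p 0.381) the smallest adjusted p among them. Between β- and α-cells, 6 of 16 tested genes of the neuronal cytoskeleton were higher and 3 lower in β-cells, among them VIM (1.66 ± 0.41) and MAP2 (1.15 ± 0.24) higher and TUBB3 (-1.11 ± 0.31) lower, which were named after their values were seen. Of the growth cone genes 1 of 11 was higher, of the enolases and ubiquitin hydrolases 2 of 5 were higher, and of the neurotrophins and receptors 2 of 10 were lower. In the list of repulsive guidance, neogenin and bone morphogenetic protein genes 2 of 13 were higher and 3 lower, and of the neuronal gene repressors 1 of 9 was lower. The lists are read beside the 25.0% of all genes that passed.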

How the data were processed

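The deposited files hold UMI counts per gene and cell. Per the study's methods, the authors trimmed reads, aligned them to Macaca_fascicularis_5.0 and counted uniquely mapped reads with htseq-count, each UMI once, without normalization in these files. The submitters' processing notes name TopHat2 2.0.12 and CASAVA 1.8. Rows of 95 spike-ins (5.41% of UMIs) were left out of library sizes and tests. The study's filter on mapping rate and its batch-corrected clusters were not used here.

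The 9 genes and the gene lists were chosen with earlier results of these data known. Named genes are all 9, fixed direct partners, list genes past the age threshold, and, for NEFM, UCHL1, ENO2 and NTF3, the 3 genes of highest correlation. Counts were summed per monkey and type (at least 5 cells) and tested with edgeR 4.0.16 (TMM, filterByExpr, quasi-likelihood, Benjamini-Hochberg adjusted p under 0.05) in R 4.3.3, with sex as covariate for age and the monkey as block between types. Shares of cells used each cell thinned to 10000 UMIs and, over monkeys, a two-sided exact permutation test. The tests were run on simulated data first. Monkeys share replicate numbers across groups but are different animals. Same-numbered sums correlated on average at -0.00078 in β-cells and 0.037 in α-cells, and differently numbered ones at 0.0013 and -0.012. Alternatives were DESeq2 1.42.0, RLE, other filters on genes and cells, thinning, other blocks and leaving out each monkey. A top hormone of at least 2 times the next, and leaving out cells with other cells' markers, were added after seeing the data. Some marker and partner genes are not reported here.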

Additional observations from a re-analysis of the deposited data

Results flagged for a closer look

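Of 63 groups of 4 to 8 monkeys (1 gene, 1 cell type, 1 age group), 18 had a monkey whose level in CPM stood apart from the others by Dixon's gap test. By chance the test marks about 5% of groups of normally distributed values. That distribution was not checked here, so the 18 are not read against the 5%. In 4 of the 18 every other monkey was at 0 (NEFL in δ-cells of both ages, RGMA in δ-cells of young and in PP-cells of old monkeys), so that any UMI marks the group and the 5% does not apply. In α-cells these were ENO2 in YF1 at 167 CPM, GAP43 in OM2 at 38.4, NEFL in OF4 at 10.5 and in YF4 at 27.2, and NTF3 in OM4 at 78.6 and in YM3 at 114. In β-cells they were NEFL in YF4 at 70.5 (28.5 in the next young monkey) and RGMA in YM3 at 15.5 (7.57 in the next). Each of the α-cell values rests on 152 to 3653 UMIs of the gene, and the β-cell values on 548 and 38.

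In δ-cells the monkeys were GAP43 in YF1 at 25.4 CPM, INA in OM2 at 50.4 (the only one below its group), NEFL in OF1 at 5.66 and in YM3 at 4.27, NEFM in YF3 at 256, NTF3 in OM4 at 26.1 and in YF2 at 106, and RGMA in YF4 at 4.09. In PP-cells of old monkeys they were NEFL in OM2 at 14.4 and RGMA in OF2 at 2.0. These δ- and PP-cell values come from 5 to 33 cells and from 1 to 147 UMIs of the gene.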

How the results depend on the processing

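The differences between cell types that passed kept their direction in 621 of 621 alternatives, and 16 lost the threshold. With at least 10 cells per monkey 8 did, namely the 6 of PP-cells, STMN2 between δ- and α-cells (1.19) and NEFM between δ- and β-cells (-1.13). For the 6 of PP-cells only OF2 (33 cells) remained there, so their loss says nothing about the spread between monkeys. STMN2 between PP- and δ-cells also lost it without 4 single monkeys, without the deepest 5% of cells (-1.79) and with a top hormone at least 2 times the next (-1.54). The other 2 were ENO2 between δ- and α-cells without the deepest cells (0.60, adjusted p 0.056 by edgeR) and STMN2 between PP- and β-cells after thinning (1.84, adjusted p 0.056). Of 1561 alternatives of values that had not passed, 82 changed sign and 24 passed, 4 of them for age (NTF3 in β-cells 3 times, ENO2 in α-cells once, as given above).

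Counts over all genes moved more. By age in β-cells 5 genes became 39 with DESeq2, 21 with no filter on low counts, 1 after thinning or with a top hormone at least 4 times the next, and 3 without cells above the 95th percentile of UMIs. In α-cells 0 became 24 with DESeq2. In δ-cells 0 became 3 with DESeq2, with no filter or with at least 10 cells per monkey. In PP-cells 0 became 1 with DESeq2 or without sex, 9 with no filter, 2 without the deepest cells and 3 with the replicate block. With DESeq2 the type by age interaction went from 0 to 10 and the sex by age interaction from 0 to 2 in β-cells (1 with no filter) and from 1 to 8 in α-cells. With at least 10 cells per monkey the count was 5135 between β- and α-cells (3222 before), 47 between PP- and α-cells (852), 372 between PP- and β-cells (2221) and 272 between PP- and δ-cells (1334). Thinning gave 1911 between δ- and α-cells (2999) and 741 between PP- and δ-cells. DESeq2 gave 1359 between PP- and α-cells and 2103 between PP- and δ-cells, and the fit without the monkey as block 2269 for the latter. The number of genes tested also changed. Between types it went from 12899 to 16026 with at least 10 cells per monkey and to 9065 after thinning. By age in β-cells it went from 10628 to 17401 with no filter on low counts and to 6813 after thinning. The cause of these shifts was not tested.

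Leaving out 1 monkey at a time gave 2 to 8 genes by age in β-cells, 0 in α-cells and in δ-cells, and 0 to 10 in PP-cells. Between types it gave 2876 to 3440 (β and α), 2656 to 2921 (δ and α), 2236 to 2623 (δ and β), 576 to 910 (PP and α), 1857 to 2299 (PP and β) and 1106 to 1450 (PP and δ). The type by age interaction gave 0 to 1, and sex by age 0 to 1 in β-cells and 1 to 2 in α-cells. Of 18 shares of cells compared by age, 3 had an unadjusted exact permutation p under 0.05 (NEFM, NTF3 and RGMA in β-cells), with 3 to 6 when 1 monkey was left out, 6 being without YF1, and 2 with no thinning, where RGMA had 0.156. Only the 9 genes were compared in this way, so no share over all genes stands beside these counts. The genes were chosen with levels by age in view, and the counts support nothing about them. A replicate block by number gave 5 genes by age in β-cells and 0 in α-cells and δ-cells. The numbers name different animals and were not taken as pairs. In β-cells and in α-cells 8 of 16 monkeys correlated best with a monkey of their own number. Whether the numbers follow the order of collection was not tested. Depth limits RGMA, NEFL and NTF3 in δ- and PP-cells, where most sums held a few UMIs.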

Other observations

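Among 8206 genes with a mean of at least 10 CPM, the levels most like those of NEFM over the 49 sums of monkey and type were MTMR6 (Pearson r 0.688), SLC31A1 (0.680) and PIR (0.673). For UCHL1 they were VAT1L (0.746), SLC2A2 (0.744), the β-cell glucose transporter, and SEC11C (0.740). For ENO2 they were SYT2 (0.588), LAPTM4B (0.588) and EHF (0.572), and for NTF3 PDE4D (0.737), FAH (0.726) and SULT4A1 (0.722). The sums of a monkey share its cells' day and libraries and differ in depth between types, so these values describe the pattern over types as much as that over monkeys.

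Cells with immune markers over 2000 CPM numbered 65, of which 49 came from young monkeys and 16 from old ones, and they held a median of 33997 UMIs. Of the 65 cells, 59 were α-cells. NEFM was found in 29.2% of the 65 and UCHL1 in 61.5%, with no thinning. Over all α-cells, at a median of 64894 UMIs, the shares were 43.0% and 86.6%. The part of depth in this gap was not tested.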
